A study of Mus musculus with 6 samples.

Results

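The ribosome-bound RNA of cerebellar Purkinje neurons was described in the control libraries of a mouse RNA-seq series, 3 of its 6 libraries, chosen by their label alone and by no measured value. Each control library came from the cerebellum of 1 C57BL/6 mouse aged 4 weeks. Its genotype was Pcp2-BacTrap with Rbm17 f/+, that is 1 floxed and 1 intact allele of the splicing factor Rbm17 and no Cre. The other 3 libraries, from mice of the same strain and age with Pcp2-BacTRAP, Pcp2-Cre and Rbm17 f/-, were not used, so no genotype was compared and nothing was tested between groups.

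In the BacTRAP method a GFP-tagged ribosomal protein is expressed from a cell type's own promoter, here that of Pcp2, and antibodies to GFP pull down the tagged ribosomes with the messenger RNA on them. Purkinje cells are the large GABAergic output neurons of the cerebellar cortex. They are excited by granule cell parallel fibres and by a climbing fibre, signal through metabotropic glutamate receptors, phospholipase C and IP3 receptor calcium release, and fire spontaneously by means of P/Q-type calcium channels, resurgent sodium current and fast potassium channels. They are wrapped by Bergmann glia and lie beside granule cells, the most numerous neurons of the cerebellum. The tag marks only cells in which the Pcp2 promoter is active, and no library of unselected cerebellar RNA was analysed here, so levels are given as found in the pull-down and not as enrichment over whole cerebellum.

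The libraries held 141035957, 149552228 and 140110897 gene counts, of which the ribosomal RNA precursor Rn45s took between 10.6% and 12.5%. It was left out of all further values. The junction files held between 73796963 and 78104343 reads. Of 23420 gene rows, 14914 had at least 10 counts in every library, and 5274 had none in any. Levels of 1 gene are given as CPM, counts scaled to a common library size, and levels of different genes are compared as CPM per kb of joined exon. The median gene with 10 counts in every library and at least 200 bp of exon had 5.58 CPM per kb, and the 90th percentile was 42.9. With 3 libraries an exact two-sided sign-flip test cannot give a p under 0.25, so values are described by their range and their standard deviation (SD, n = 3 animals) throughout.

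The libraries were not alike in the levels of cell type markers. Library 1 had the highest level of 22 of 24 Purkinje cell markers and the lowest level of 12 of 14 granule cell, 17 of 18 oligodendrocyte, 14 of 18 astrocyte and Bergmann glia and 14 of 15 microglia markers. Library 3 had the lowest level of 21 Purkinje cell markers. The median Purkinje marker lay 0.25 above its 3-library mean on the log2 scale in library 1, and at -0.08 and -0.19 in libraries 2 and 3. The median granule marker lay at -0.28, 0.02 and 0.18. In bulk RNA fewer cells of a type and less RNA per cell cannot be told apart. What part these differences have in any level below was not tested, so each result that goes with them is given for every library.

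**Figure D1:**
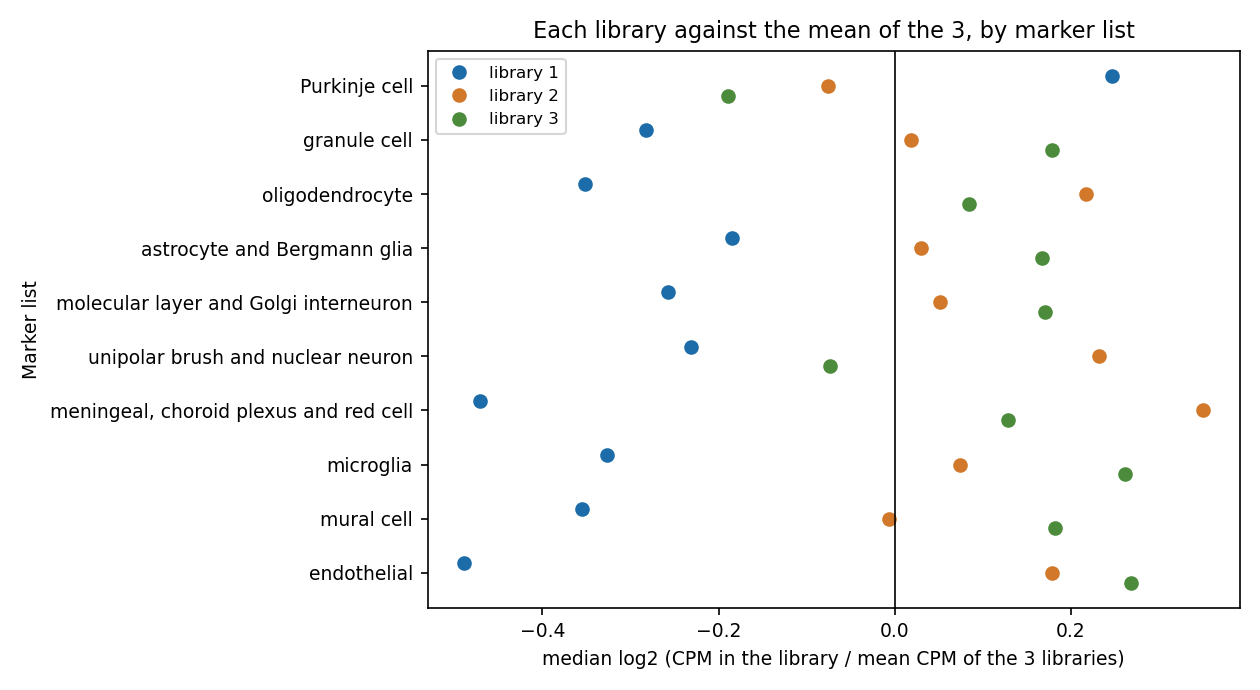
Median log2 ratio of each library's CPM to the 3-library mean CPM (x axis), taken over the genes of 10 cell type marker lists (y axis), with 1 point for each library. Library 1 lies to the right for the Purkinje list at 0.25 and to the left for the other 9 lists, down to -0.49 for endothelial markers.

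Library 2 stood apart in choroid plexus RNA. Ttr, the transthyretin that choroid plexus epithelium secretes, was at 883 CPM in library 1, 2700 in library 2 and 879 in library 3. Kl, the choroid plexus protein klotho, was at 19.6, 50.6 and 18.6 CPM, and Folr1, its folate receptor, at 3.55, 7.10 and 2.24 CPM. All 3 genes were highest in library 2, and libraries 1 and 3 lay closer to each other than to it. Ttr averaged 743 CPM per kb without library 2 and 1254 ± 886 with it.

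The 10 genes with the most counts held 7.82% ± 0.37 of all counts, the top 25 held 11.95% ± 0.64 and the top 100 held 21.1% ± 0.82. Per kb of exon, the leading transcript was Pcp4, a small calmodulin-binding protein of Purkinje cells. It had 6523, 5984 and 5526 CPM in libraries 1 to 3 and 9377 ± 779 CPM per kb. Next came Calm2, a calmodulin gene, at 6963 ± 696 CPM per kb, and Snap25, the SNARE protein of synaptic vesicle release, at 5549 ± 507. Car8, a carbonic anhydrase relative that binds the IP3 receptor, followed at 3512 ± 548 CPM per kb. It had the most counts of all genes in libraries 1 and 2 and by the 3-library mean, at 15907, 12815 and 11867 CPM, while Snap25, at 11798, 11688 and 13704 CPM, had more in library 3. The 14-3-3 gene Ywhah stood at 2308 ± 308 CPM per kb.

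Several other genes of the top 25 are known for their place in Purkinje cells. Aldoc, the zebrin II glycolytic enzyme that marks stripes of Purkinje cells and is also made by glia, was at 1161 ± 210 CPM per kb, with 4120, 3367 and 2878 CPM. Pvalb, the calcium buffer parvalbumin of Purkinje cells and interneurons, was at 1249 ± 110 CPM per kb. Gng13, a G protein gamma subunit, was at 959 ± 79.3, and Rgs8, a regulator that shortens G protein signals, at 897 ± 118. Aldoc, Pvalb and Rgs8 were each highest in library 1 and lowest in library 3, as most Purkinje markers were.

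The rest of the 25 are widely expressed or belong to other cells. Energy metabolism was represented by Gapdh at 2735 ± 191 CPM per kb, the ATP synthase subunit Atp5b at 2689 ± 250, the brain creatine kinase Ckb at 1264 ± 104 and the cytochrome oxidase subunit Cox6a1 at 872 ± 34.8. The tubulin Tubb4a was at 1276 ± 105 CPM per kb. Ndrg4 was at 934 ± 94.9, the 14-3-3 gene Ywhaz at 927 ± 43.7, Cend1 at 728 ± 37.7, the fatty acid elongation enzyme Tecr at 717 ± 21.9 and Pebp1 at 715 ± 44.4. Tecr varied least between the libraries relative to its level among these 10. Ptgds, a prostaglandin synthase of meninges and oligodendrocytes, was lowest in library 1, with 573, 920 and 989 CPM. Vsnl1, a calcium sensor that granule cells also express, was at 1255, 1452 and 1794 CPM and so was lowest in library 1, unlike the Purkinje markers.

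Reads that cross annotated splice junctions gave a second reading of the same libraries, which does not depend on how the counting treats reads in overlapping exons. For each gene the median over the introns of its best supported transcript was taken and scaled to the library's junction reads (junction RPM, which is to junction reads what CPM is to counts). Over 14323 genes the measures had a Spearman correlation of 0.910 across genes, which share libraries and are not independent. Of the 25 leading genes by CPM per kb, 12 were also among the leading 25 by junction RPM. Pcp4 led both orders with 4497 ± 294 junction RPM, and Car8 at 2306 ± 238 and Snap25 at 2267 ± 299 followed it by junction reads.

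Pcp2, the L7 gene whose promoter drives the tag, had the most junction RPM per CPM per kb of joined exon among the 24 Purkinje markers, 2.24. It had 1190, 1132 and 1099 CPM and 681 ± 27.4 CPM per kb, place 33. By junction reads it was in place 5, with 1525 ± 26.0 junction RPM. The gene lies at chr8:3623371-3625545 on the minus strand (mm10), and 51.6% of its exon bases are overlapped by exons of Pet100 on the opposite strand. Whether the counting kept strand or dropped reads shared by both genes is not given in the sources used here, and its part in the low count was not tested.

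A high ratio of junction RPM to CPM per kb was found in a small share of genes. Of 3683 genes with at least 5 junction RPM, 91 (2.47%) had more than 2 junction RPM per CPM per kb. The median over genes with both readings was 0.261. Long joined exons raise this ratio too, so a high ratio does not by itself show lost counts. Atp5g1, with 650 CPM and 4912 bp of exon, and Rps15a, with 112 CPM and 5395 bp, were among the 91. Exons of another gene covered at least 20% of the bases in 23 of the 91 (25.3%), compared with 8.25% of all 3683. Snrpn, the neuronal Sm protein whose exons lie beside those of Snurf on 1 transcript, had 0.972 CPM and 409 junction RPM, which would put it in place 17 by junction reads. Oaz1, the ornithine decarboxylase antizyme made by ribosomal frameshifting, had counts in library 3 alone, at 0.0235 CPM, and 304 junction RPM. The haemoglobin gene Hba-a1 had 0 counts in all 3 libraries and 15.5 junction RPM. A count of 0 or close to it in this table therefore did not show that reads of these 3 genes were missing from the libraries. Whether some of these junction reads came from closely similar genes was not tested. A count of 0 allows up to between 0.0226 and 0.0248 CPM (3 counts) by counting error alone, a limit that does not cover reads the counting left out.

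The opposite case was Lars2, the mitochondrial leucyl-tRNA synthetase. It had 10862, 11796 and 8970 CPM, among the highest counts of all, and 2707 ± 370 CPM per kb, but 1.08 ± 0.149 junction RPM over its 20 introns. Of 485 genes with at least 100 CPM per kb and at least 2 introns, Lars2 and Mllt11 alone had under 0.01 junction RPM per CPM per kb. Mllt11, a small protein of differentiating neurons, had 129 CPM per kb and 0.295 ± 0.488 junction RPM. Its junction RPM was 0, 0.858 and 0.0271 in libraries 1 to 3, so that mean rests on library 2. The place of Lars2 among the leading 25 therefore rests on reads that do not cross its annotated introns.

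**Figure D2:**
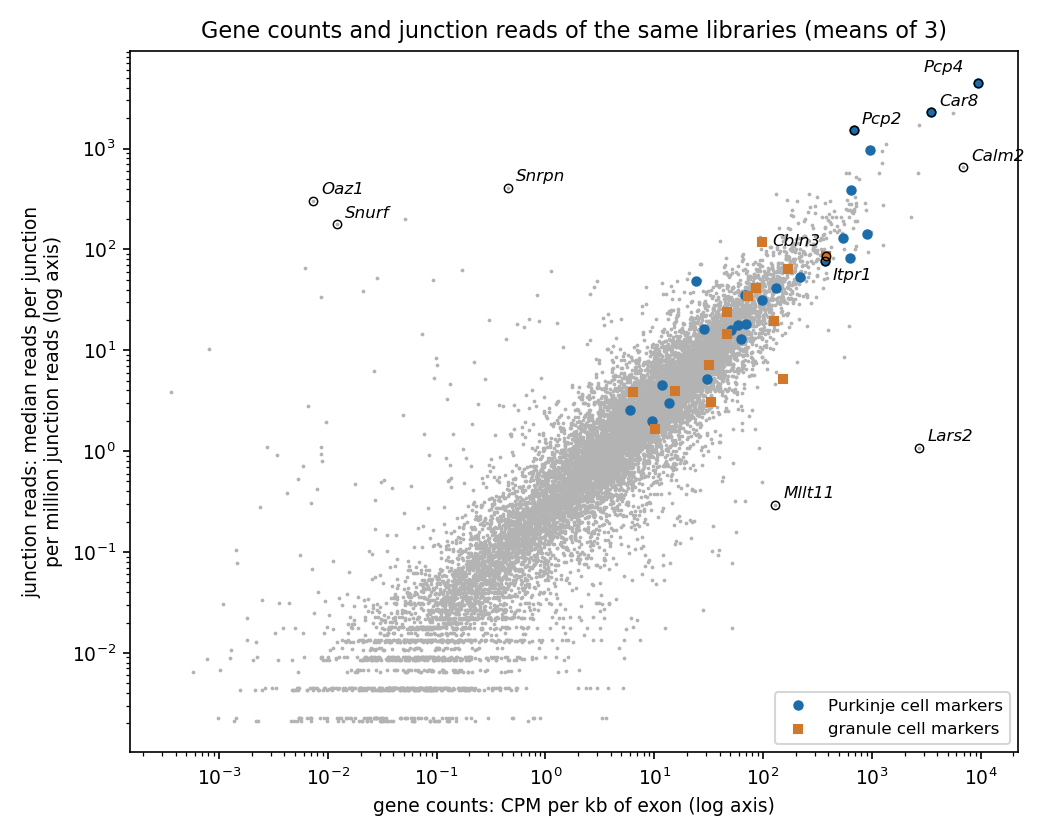
Mean level of each gene over 3 libraries by gene counts (x axis, CPM per kb of exon, log axis) and by junction reads (y axis, junction RPM, log axis), with Purkinje markers as blue circles and granule markers as orange squares. Clustered protocadherin genes and genes at 0 in either reading are not drawn. Pcp4 and Car8 lie at the upper right in both readings, Lars2 and Mllt11 lie far below the cloud, and Snrpn, Snurf and Oaz1 far above it.

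All 24 Purkinje cell markers were at or above the median gene of 5.58 CPM per kb. Their median was 96.8, 82.6 and 74.4 CPM per kb in libraries 1 to 3. Together they took 5.0%, 4.01% and 3.70% of all CPM. Beside Pcp4, Car8 and Gng13, the calcium buffer Calb1 (chr4:15881264-15908064, plus strand) had 3430, 2558 and 2219 CPM and 648 ± 148 CPM per kb. The IP3 receptor Itpr1 stood at 4933, 3162 and 2844 CPM. For Calb1 and Itpr1 library 1 lay well above the other 2, which lay closer to each other. The lowest of the list were transcription factors, Lhx5 at 11.9, Skor2 at 9.62 and Foxp2 at 6.02 CPM per kb.

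Granule cell transcripts were present at a level not far below. All 14 granule markers were above the median gene, and their median was 51.3, 59.7 and 68.3 CPM per kb. Cbln3, a cerebellin that granule cells secrete (chr14:55878913-55884392, minus strand), led with 1435, 1849 and 2305 CPM and 383 ± 89.4 CPM per kb. Gabra6, the GABA-A receptor subunit of granule cells, was at 355, 446 and 467 CPM and 170 ± 24 CPM per kb. Neurod1, their transcription factor, was at 331, 398 and 514 CPM and 152 ± 34 CPM per kb. All 3 genes were lowest in library 1 and highest in library 3, the reverse of the Purkinje list. Pcp2 was above Cbln3 per kb of exon, at 681 against 383, and by junction reads, at 1525 against 86.0 junction RPM, but below it in CPM in every library.

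The margin of the Purkinje list over the granule list depended on how a gene's level was read. The ratio of the list medians was 1.89, 1.38 and 1.09 per kb of exon, with a mean of 1.45 ± 0.40, and 1.24 without library 1. By junction reads it was 3.19, 2.1 and 1.80. Per kb of the median transcript length it was 1.48, 0.971 and 0.868, and in CPM it was 1.57, 1.01 and 0.746, so on both of those scales the order of the medians was reversed in library 3, and in library 2 also on the first of them. The ratio of the list sums, which the few most abundant genes decide, was 19.7, 14.0 and 11.1. In every one of these readings library 1 had the highest ratio and library 3 the lowest.

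Glial RNA was also present. Of 18 oligodendrocyte markers, 14 were above the median gene, with list medians of 26.6, 41.3 and 35.9 CPM per kb. Mbp, the myelin basic protein, had 466, 957 and 874 CPM, and was lowest in library 1. Cnp, a myelin enzyme, was at 215 ± 15 CPM per kb, with 495, 547 and 481 CPM, so it was not lowest in library 1. Trf, transferrin, was at 124 ± 16 CPM per kb. The 18 astrocyte and Bergmann glia markers had medians of 26.2, 27.7 and 29.2 CPM per kb. They were led by Ndrg2 at 250 ± 54, Sparcl1 at 182 ± 38 and the glutamate transporter Slc1a3 at 141 ± 19 CPM per kb. Gfap, the astrocyte intermediate filament (chr11:102887336-102900912, minus strand), was far lower at 42.6, 50.7 and 51.0 CPM and 11.8 ± 1.17 CPM per kb.

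Other neurons of the cerebellum lay near the median gene. The 11 markers of molecular layer and Golgi interneurons had medians of 4.47, 5.33 and 5.83 CPM per kb, with Kit at 37.8, Tfap2b at 10.9 and Npy at 7.99 CPM per kb. The 6 markers of unipolar brush and nuclear neurons had medians of 5.99, 5.55 and 3.90, with the calcium buffer Calb2 at 76.9, Spp1 at 11.7 and Slc17a6 at 6.64. Calb2 is also a granule cell transcript, so its level is not that of unipolar brush cells alone.

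Microglial and vascular transcripts were the lowest. The 15 microglia markers had medians of 0.932, 1.82 and 2.41 CPM per kb, and were led by C1qb at 8.27 and Ctss at 6.50. The 10 mural cell markers had medians of 0.491, 0.610 and 0.808 (Vtn at 9.30, Acta2 at 2.22, Rgs5 at 1.93). The 16 endothelial markers had 0.349, 0.542 and 0.850 (Slc2a1 at 17.9, Mfsd2a at 3.64, Itm2a at 3.32), and the tight junction gene Cldn5 was at 0.749 CPM per kb. The median of each of these lists was lowest in library 1 and highest in library 3. Of the 10 meningeal, choroid plexus and red cell markers, Ttr led, followed by the haemoglobin gene Hbb-bs at 18.8 and Igf2 at 16.9 CPM per kb. Hba-a1 was the only marker of the 10 lists with 0 counts in every library, and as given above it did have junction reads.

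**Figure D3:**
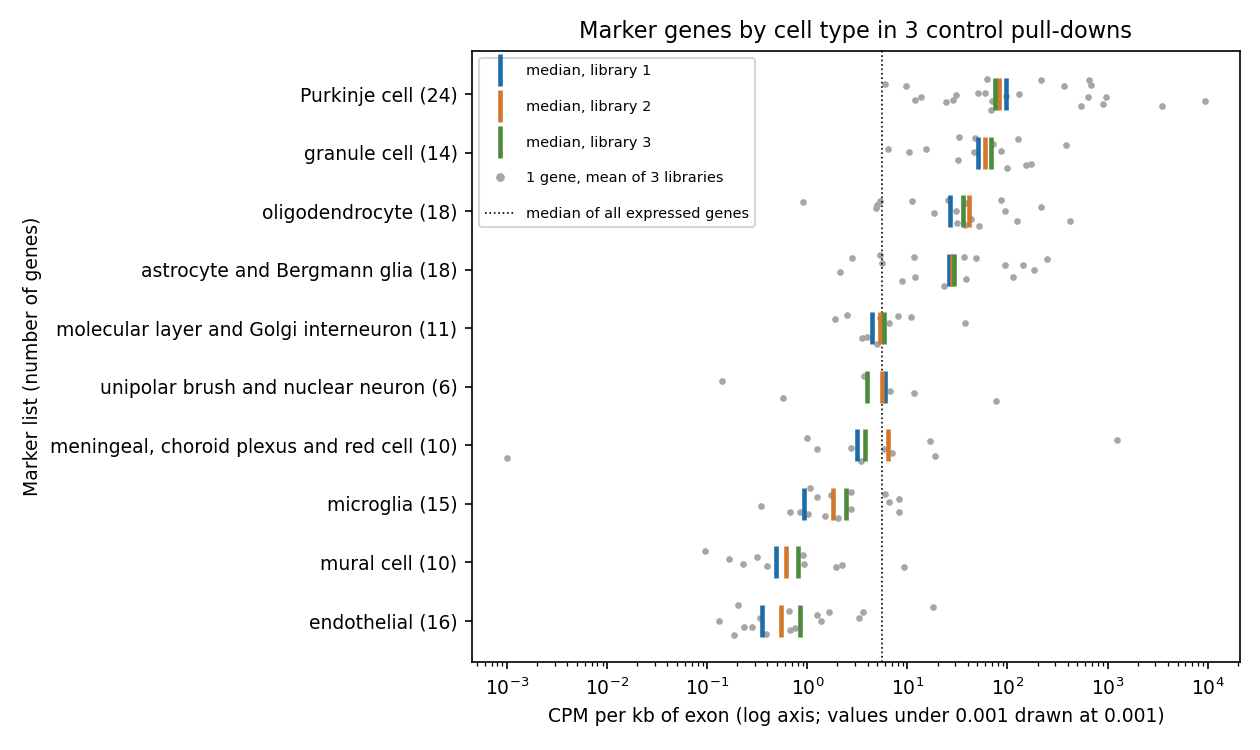
Level of each marker gene (grey points, mean of 3 libraries, CPM per kb of exon on a log axis) for 10 cell type lists, with the list median in each library as a coloured bar and the median of all expressed genes, 5.58, as a dotted line. The Purkinje medians lie between 74.4 (library 3) and 96.8 (library 1), the granule medians between 51.3 (library 1) and 68.3 (library 3), and the endothelial medians stay under 1.

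The use of paralogs was read from each member's share of its family's summed CPM per kb. In 40 families with 175 members, 161 members had at least 10 counts in every library. The same member led in all 3 libraries in 35 families. The leader held over 50% in 32 families, over 75% in 12 and over 90% in 5, with a median share of 67.2%. The leader was the same under every setting tried in 28 of the 40. Family members that are also markers were 8 from the Purkinje list, 3 from the granule list, 2 from the astrocyte list and 1 each from the interneuron and unipolar brush lists, and the share of such a member can go with the differences between libraries described above.

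Several steps from glutamate receptors to calcium release were carried largely by 1 member. Among metabotropic glutamate receptors, Grm4, a presynaptic receptor of parallel fibres, held 28.5%, 38.8% and 41.3%, lowest in library 1. Grm6, the receptor of retinal bipolar cells, had 0 counts. Among the G protein alpha subunits of the Gq class, Gnaq held 66.6% ± 3.95 and Gna11 33.3% ± 3.9, and Gna14 was lowest at 0.0293%. Plcb4, a phospholipase C of Purkinje cells, held 70.2%, 70.2% and 70.3%, the steadiest share of these families, before Plcb3 at 19.2% ± 1.4 and Plcb2 at 0.0225%.

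Itpr1, the IP3-gated calcium release channel, held 99.8%, 99.8% and 99.7% of its family, with Itpr2 at 0.135% and Itpr3 at 0.117%. Ryr2 led the ryanodine receptors at 79.2% ± 1.3, before Ryr1 at 14.6% and Ryr3 at 6.21%. The level of Ryr2 was far lower, at 4.90 CPM per kb against 369 ± 114 for Itpr1. Homer3, the scaffold that ties glutamate receptors to the IP3 receptor, held 93.2% ± 0.69, before Homer1 at 4.44% and Homer2 at 2.40%.

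Calcium clearance was read in the pumps and buffers. Atp2a2, the SERCA pump of the endoplasmic reticulum, held 84.8% ± 1.5, Atp2a3 15.1% ± 1.5 and Atp2a1 0.0627%. Atp2b2, the fast plasma membrane pump PMCA2, held 74.6% ± 3.71, before Atp2b3 at 16.4% ± 2.6, with Atp2b4 lowest at 0.799%. Of the EF-hand buffers Pvalb held 63.4% ± 2.2, Calb1 32.6% ± 3.5 and Calb2 4.00% ± 1.3 per kb of exon, but in CPM Calb1 led, since its exons are longer.

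Among the ionotropic glutamate receptors, no AMPA subunit held over 50%. Gria3 held 33.0%, 30.0% and 26.4% and Gria4 26.8%, 28.8% and 33.7%, so the order of these 2 was reversed in library 3, and by junction reads Gria4 led. Gria1 held 25.4%, and was lowest by junction reads with 16.6%. Gria2, the subunit that makes the channel impermeable to calcium, was lowest at 15.04% ± 1.9 per kb of exon, but held 26.8% by junction reads. Grin2c, the NMDA subunit of mature granule cells and a marker of that list, led the GluN2 genes with 66.1%, 73.2% and 79.9%, before Grin2a at 18.2% ± 4.3, with Grin2b lowest at 1.75%. Its level was 35.3, 52.3 and 67.5 CPM, lowest in library 1 and highest in library 3 as for most granule markers. Of the kainate subunits Grik1 held 38.3%, 31.5% and 24% and Grik3 24.2%, 24.1% and 32.1%, so that Grik3 led in library 3, with Grik4 lowest at 5.37%. Grik2, at 13.9% per kb of exon, led by junction reads with 25.4% and per kb of the median transcript.

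Among the auxiliary TARP subunits, which carry AMPA receptors to the synapse, Cacng7 held 48.0% ± 0.78 and Cacng2 (stargazin) 34.6% ± 4.2 per kb of exon. By junction reads and in CPM Cacng2 led, with 58.7% of junction RPM. Cacng8 was lowest at 0.390%. Among the cerebellins, which organise synapses, Cbln3 held 71.7% ± 2.0 and Cbln1, also secreted by granule cells, 28.1% ± 2.0, with Cbln2 at 0.0208%. Of the postsynaptic scaffolds, Shank1 held 67.4% ± 1.4, Shank2 27.3% ± 0.22 and Shank3 5.30% ± 1.1. Dlg2 (PSD-93) held 67.1% ± 5.2 and Dlg4 (PSD-95) 19.0% ± 3.7 per kb of exon, with Dlg1 lowest at 6.43%, but by junction reads Dlg4 led with 57.7%. Nlgn2, the neuroligin of inhibitory synapses, held 72.8% ± 1.4, before Nlgn3 at 23.5% and Nlgn1 at 3.77%. Nrxn3 held 41.4% ± 2.5 of the neurexins and Nrxn2 17.9% ± 2.2. Nrxn3 did not lead its family in every library, nor by junction reads, in CPM or per kb of the median transcript.

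Members of other cell types stood out in the inhibitory receptors and the transporters. Gabra6, the granule cell subunit, held 43.2%, 49.4% and 49.5% of the GABA-A alpha subunits and was lowest in library 1, and Gabra5 was the lowest member at 0.215%. Gabrb2 held 68.2% ± 2.2 of the beta subunits and Gabrb1 0.378%. Slc1a3 (GLAST), the Bergmann glia transporter, held 51.0%, 52.3% and 59.6%, and Slc1a6 (EAAT4), that of Purkinje cells, 31.5%, 29.4% and 20.8%, so that the glial member had its highest share in library 3, where the Purkinje member had its lowest. Slc1a7 had 0 counts.

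Among voltage-gated calcium channels Cacna1g, the T-type channel Cav3.1, held 53.3% ± 2.9 and Cacna1a, the P/Q-type channel, 32.2% ± 1.2 of the 10 alpha1 genes. Cacna1f, the retinal channel, was lowest at 0.0087%. The alpha2delta subunit Cacna2d2 held 83.2% ± 3.17 before Cacna2d3 at 12.1%, with Cacna2d4 lowest at 0.369%. The beta subunit Cacnb4 held 55.2% ± 2.4 and Cacnb2 37.2% ± 0.55, with Cacnb1 lowest at 1.03%. Per kb of the median transcript, Cacnb2 led instead.

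The sodium channel alpha subunits were divided over 3 genes. Scn1a held 34.3% ± 1.7, Scn8a (Nav1.6, a carrier of resurgent current) 33.7% ± 1.6 and Scn2a (listed as Scn2a1) 31.4%. The shares of Scn1a and Scn8a did not differ beyond their spread, and Scn8a led in CPM and per kb of the median transcript. Scn4a, the muscle channel, had 0 counts. Of the FGF homologous factors that bind sodium channels, Fgf12 held 41.7% ± 1.8 and Fgf14 34.8% ± 1.6, and Fgf13 was lowest at 6.66%.

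Potassium channels also had a leader in each class named here. The BK channel beta subunit Kcnmb4 held 97.6% ± 0.38, with Kcnmb2 at 1.95% and Kcnmb3 at 0.154%. Kcnd2 held 59.9% ± 2.2 and Kcnd3 38.7% ± 2.0, with Kcnd1 at 1.39%. Kcnd3 led per kb of the median transcript. Kcnn2, the SK2 channel of Purkinje cells, held 59.6% ± 4.53 before Kcnn3 at 30.7%, with Kcnn4 lowest at 0.314%. Kcna1 held 64.0% ± 2.2 of the Kv1 genes and Kcna2 19.2% ± 1.6 per kb of exon, and Kcna7 was close to 0. Kcna6 led that family by junction reads, at 49.0%. Of the CaMKII genes Camk2b held 65.8% ± 1.4 and Camk2a 19.0% ± 3.1, with Camk2d lowest at 7.41%.

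**Figure D4:**
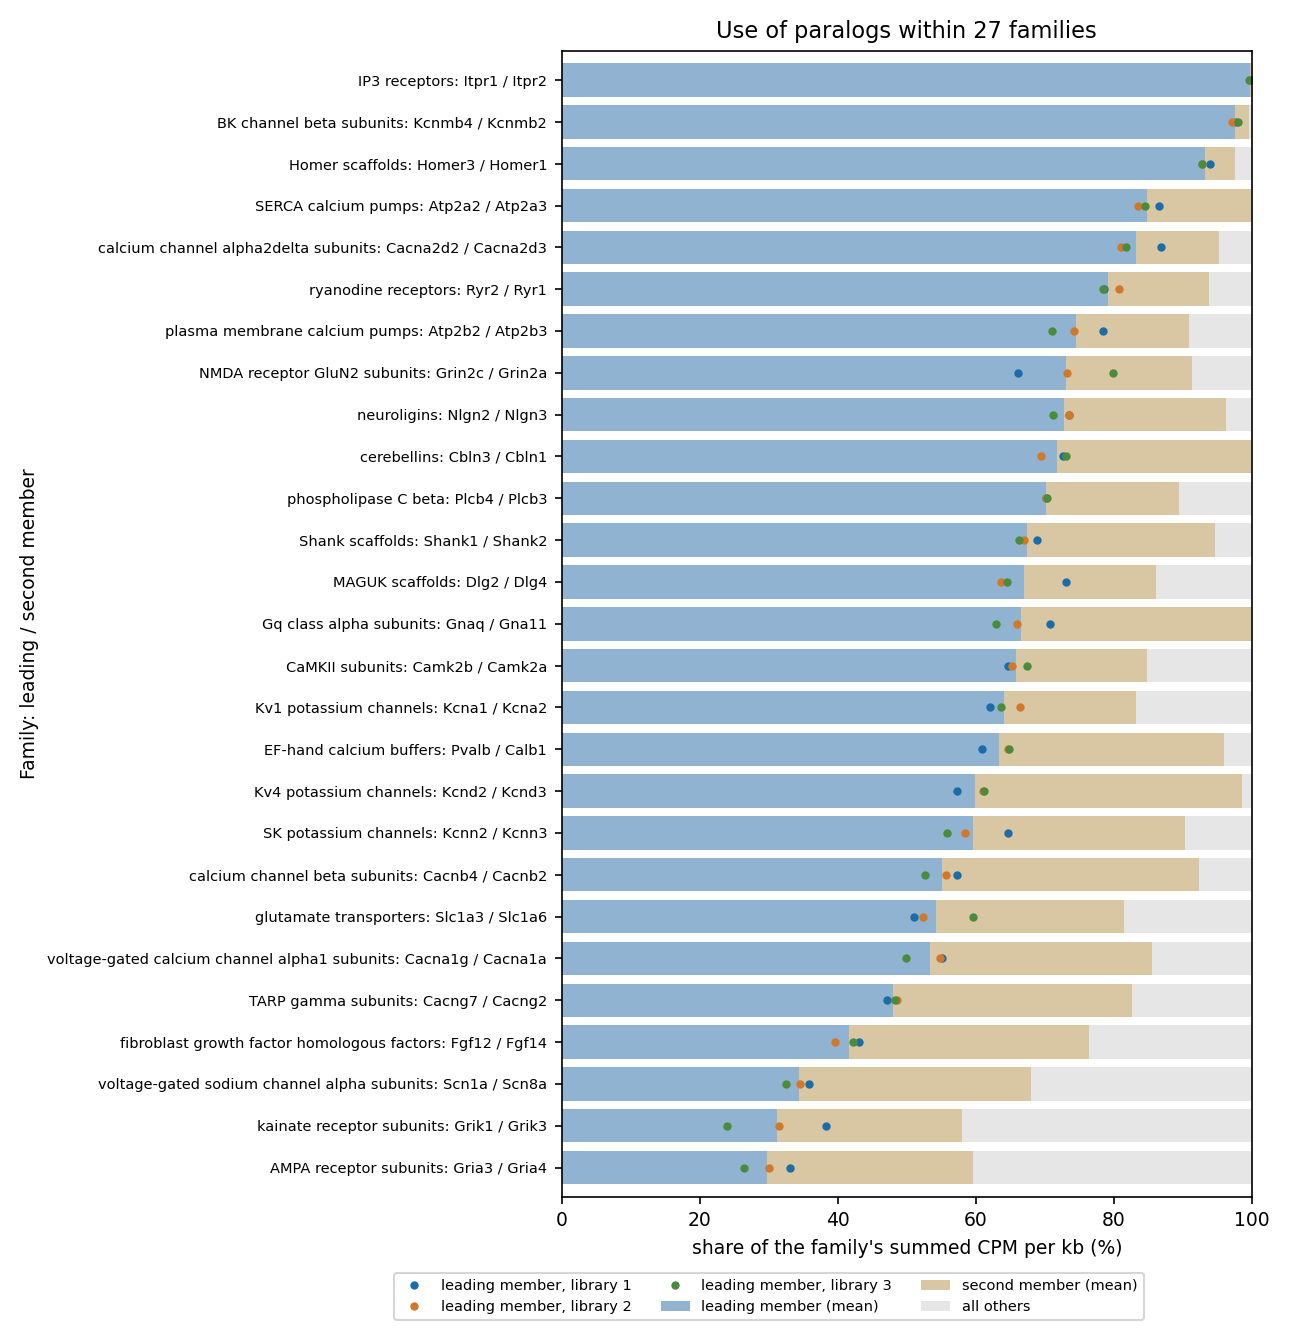
Share of each family's summed CPM per kb (x axis, percent) held by the leading member (blue bar, mean of 3 libraries), the next member (tan bar) and all others (grey), for 27 families (y axis), with the leader's share in each library as a point. Itpr1, Kcnmb4 and Homer3 hold over 90%, while the AMPA, kainate and sodium channel alpha families have no member above 50%.

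Splice isoforms were read from the junction files. Inclusion of a cassette exon compares the mean read number of its upstream and downstream junctions, M, with the number of reads that skip it, K, as M / (M + K). At least 50 reads over the event were asked for in every library. A junction that skips an annotated exon was found for 17887 exons of 7138 genes. Of these, 13635 were included above 90%, 1247 below 10% and 3005, in 2122 genes, between 10% and 90%. Exons in the middle range had a median SD of 5.16 percentage points between the libraries. Their length was a multiple of 3, which keeps the reading frame, in 59.8%, against 42.4% of the exons above 90%. Microexons of 3 to 27 bp were in the middle range in 46.2% of 355 cases and kept the frame in 83.4%, and the share in the middle range was 13.0% for exons of over 120 and up to 250 bp.

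The flip and flop exons of the AMPA receptor genes are alternative copies of 1 exon beside the last membrane segment, and flip receptors desensitise more slowly. Flip was the main form of Gria1 at 72.6%, 77.1% and 85.2%, of Gria3 at 83.0%, 82.6% and 84.3% and of Gria4 at 82.2%, 80.8% and 82.6%. Gria2 was the exception, with flip at 44.9%, 37.1% and 39.9% and flop as the main form in all 3 libraries. The ranges of Gria2 and of the other 3 genes did not overlap. The 115 bp exons of Gria2 (chr3, minus strand, flip at 80690404-80690518 and flop at 80691320-80691434) and of Gria3 (chrX, plus strand, flop at 41654810-41654924 and flip at 41669501-41669615) are shown from GENCODE M21 transcripts on mm10, because they are the genes with the lowest and highest use of flip. Capitals mark the bases that differ between the 2 exons of a gene.
Gria2 flip: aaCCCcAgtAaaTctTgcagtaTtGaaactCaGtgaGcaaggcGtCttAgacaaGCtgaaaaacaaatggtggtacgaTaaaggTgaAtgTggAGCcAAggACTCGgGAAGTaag
Gria2 flop: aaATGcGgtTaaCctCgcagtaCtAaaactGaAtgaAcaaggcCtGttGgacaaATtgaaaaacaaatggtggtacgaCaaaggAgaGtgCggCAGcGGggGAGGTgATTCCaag
Gria3 flip: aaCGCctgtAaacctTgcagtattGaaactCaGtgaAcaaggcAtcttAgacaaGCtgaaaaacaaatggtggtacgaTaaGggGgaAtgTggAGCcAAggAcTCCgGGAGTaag
Gria3 flop: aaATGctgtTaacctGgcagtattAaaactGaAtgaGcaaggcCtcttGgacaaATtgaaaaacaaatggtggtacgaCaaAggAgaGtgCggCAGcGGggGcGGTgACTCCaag
Between flip and flop, 36 of 115 bases differed in Gria1, 36 in Gria2, 32 in Gria3 and 31 in Gria4. The same exon was more alike between genes: Gria2 and Gria4 differed at 7 bases in flop and at 9 in flip.

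Other exon pairs of equal length were used almost exclusively in 1 form. In Snap25 the upstream copy, 5a, took 1.67%, 1.48% and 1.29% and the downstream copy, 5b, 98.5% ± 0.19. Exon 5b is the form of mature neurons. In Cacna1a the upstream copy of exon 37, 37a, which lies in the EF-hand-like part of the P/Q channel, took 95.3%, 92.5% and 93.9%. In Camk2d the upstream copy took 94.3% and in Cacna1c the copy at the lower coordinate 98.3%. The Cacna1c pair had few reads, averaged over each copy's junctions. They were 73, 74.5 and 77.5 for this copy and 0, 4 and 0 for the other. In Scn8a and Scn2a the upstream copy of the exon for the voltage sensor of the first domain, known as the neonatal form in sodium channels, took 7.35% ± 2.6 and 17.6%. In Cacna1e no copy dominated, with 39.2% ± 4.9 for the copy at the lower coordinate. The Snap25 exons (chr2, plus strand, 136769743-136769860 and 136770057-136770174) and the Cacna1a exons (chr8, plus strand, 84614695-84614791 and 84615574-84615670) are shown because they had the most reads. Capitals again mark bases that differ within the pair, 31 of 118 in Snap25 and 37 of 97 in Cacna1a.
Snap25 exon 5a: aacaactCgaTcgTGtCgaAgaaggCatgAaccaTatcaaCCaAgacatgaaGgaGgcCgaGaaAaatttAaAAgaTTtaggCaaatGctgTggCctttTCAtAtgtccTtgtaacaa
Snap25 exon 5b: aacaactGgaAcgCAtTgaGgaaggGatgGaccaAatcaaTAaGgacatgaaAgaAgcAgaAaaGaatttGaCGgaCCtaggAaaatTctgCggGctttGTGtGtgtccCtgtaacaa
Cacna1a exon 37a: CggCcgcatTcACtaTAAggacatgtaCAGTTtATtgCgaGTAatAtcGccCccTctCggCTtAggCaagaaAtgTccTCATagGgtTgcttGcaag
Cacna1a exon 37b: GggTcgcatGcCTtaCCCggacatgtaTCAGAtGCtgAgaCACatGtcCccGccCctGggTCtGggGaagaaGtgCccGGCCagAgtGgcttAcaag

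In the pathway of calcium release, exons of Itpr1 and Plcb4 lay in the middle range with close values in the libraries. The 45 bp exon of Itpr1 at chr6:108365299-108365343, known as the SI segment of the IP3 binding part, was included at 37.9%, 42.7% and 41.2%. The 37 bp exon of Plcb4 at chr2:136010936-136010972 was included at 62.7%, 56.5% and 56.3%. Itpr1 therefore had a main form without the exon and a minor form with it, in all 3 libraries, and Plcb4 the reverse. The Itpr1 exon is printed as the optional stretch of the most abundant release channel.
Itpr1 SI exon: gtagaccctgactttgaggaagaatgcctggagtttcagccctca

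The plasma membrane calcium pumps have an optional exon in the C-terminal, calmodulin-binding tail, which separates their a and b forms. It was included at 73.1%, 76.1% and 74.2% in Atp2b1 and at 79.1%, 78.1% and 73.2% in Atp2b3, but at 14.98%, 15.7% and 16.4% for the 172 bp exon of Atp2b2. The ranges of Atp2b2 and the other 2 pumps did not overlap. For Atp2b2 the upstream junction alone gave 25.6% and the downstream one 2.73%. The downstream junction counted here is outside the annotation and took 9.15% of the reads of the exon's donor. An annotated junction took 90.5% of that donor and was not counted. The inclusion given for Atp2b2 therefore leaves out most reads that leave the exon and lies below the upstream value. Atp2b2 stayed the lowest of the 3 by either junction. The exons lie at chr10:99019278-99019431 (Atp2b1, plus strand), chr6:113755217-113755388 (Atp2b2, minus strand) and chrX:73559864-73560017 (Atp2b3, plus strand). Those of Atp2b1 and Atp2b3 have 154 bp each and share 98 of them. Capitals mark the 56 bases that differ between these 2, and Atp2b2 is in lower case throughout.
Atp2b1: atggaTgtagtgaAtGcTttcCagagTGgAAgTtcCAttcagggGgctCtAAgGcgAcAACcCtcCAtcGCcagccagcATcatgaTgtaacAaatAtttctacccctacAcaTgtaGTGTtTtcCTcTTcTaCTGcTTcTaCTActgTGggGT
Atp2b3: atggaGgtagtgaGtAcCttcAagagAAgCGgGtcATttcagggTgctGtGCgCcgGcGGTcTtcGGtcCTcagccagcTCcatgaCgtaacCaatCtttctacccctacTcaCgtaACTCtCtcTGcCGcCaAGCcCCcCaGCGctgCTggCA
Atp2b2: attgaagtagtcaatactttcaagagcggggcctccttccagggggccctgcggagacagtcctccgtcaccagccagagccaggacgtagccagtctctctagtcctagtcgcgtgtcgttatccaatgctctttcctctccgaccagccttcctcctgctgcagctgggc

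Microexons of the scaffolds, calcium channels and neurexins ranged from rarely used to nearly constant. Shank1 included a 24 bp exon (chr7:44344298-44344321, plus strand) at 36.3%, 37.9% and 39.4%, and a 27 bp exon at 17.6% ± 1.9. Shank2 included its 21 bp exon at chr7:144398241-144398261 at 99.9%, and Shank3 a 24 bp exon (chr15:89538015-89538038, plus strand) at 92.3% ± 4.6. Whether these exons are counterparts was not tested. Cacnb4 included a 20 bp exon at 99.9%.
Shank1 24 bp exon: tctccccctggaagaagaaaattg
Nrxn3 included its 27 bp exon at chr12:89354453-89354479 at 33.3% ± 4.7 and that at chr12:89517906-89517932 at 38.5% ± 3.0, and Nrxn2 included a 27 bp exon at 78.1% and a 24 bp exon at 56.2%. These neurexin microexons were therefore all optional.

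The other named cassette exons were steady between libraries. The 45 bp exon of Camk2b was included at 87.7%, 84.7% and 86.1%, and the 33 bp exon of Camk2a at 13.5%, 9.97% and 11.6%. The 66 bp exon of Dlg4 was at 88.2%, 91.0% and 89.7%, the 72 bp exon of Arhgef33 at 72.6%, 74.6% and 75.7%, and the 120 bp exon of Cadps2 at 78.8%, 78.7% and 76.0%. In the myelin genes, whose RNA comes from oligodendrocytes, the 78 bp exon of Mbp was included at 17.7%, 17.8% and 16.6% and the 45 bp exon of Mag at 67.1%, 68.5% and 67.7%. The inclusion of both myelin exons varied by less than 2 percentage points, although the level of Mbp was lowest in library 1.

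**Figure D5:**
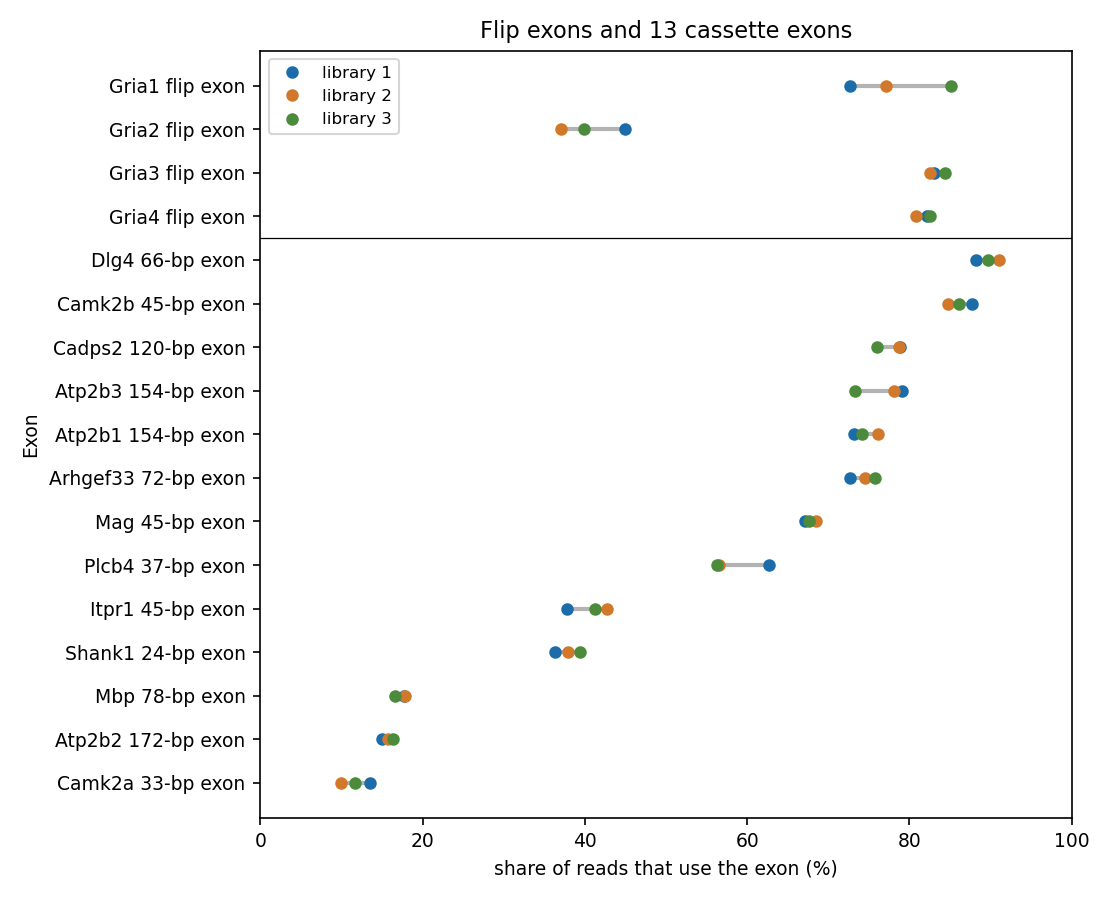
Share of reads that use the exon (x axis, percent) for the flip exons of Gria1 to Gria4 and for 13 cassette exons (y axis), with 1 point for each of 3 libraries and a grey line over their range. Gria2 flip lies between 37.1% and 44.9%, apart from the other 3 flip exons, and the cassette exons run from Dlg4 at 88.2% to 91.0% down to Camk2a at 9.97% to 13.5%.

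Several donors were spliced to the second exon of Pcp2 itself. At the acceptor of its second exon, 70.1% ± 1.4 of the reads came from a donor at 3625209 on chromosome 8. Donors at 3625001 and 3625469 gave 22.3% ± 0.9 and 7.56% ± 0.83, all annotated. Junction reads do not show whether these donors belong to separate transcription starts. This acceptor was examined after its values were seen. It had 42877, 47028 and 41466 reads in libraries 1 to 3, while the next acceptor, at 3624633, had 156806, 162872 and 161020. The split by donor therefore covers only a part of the reads of the gene. A junction from the donor at 3625001 to an acceptor 4 bp beyond the annotated one, absent from the annotation, took 7.45% ± 0.46 of that donor.

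Most splice sites had 1 partner. Of 73231 donors with at least 100 reads, 92.9% sent over 95% of their reads to 1 acceptor, and in 4.65% the leading partner took under 90%. Junctions outside GENCODE M21 held 1.52%, 1.98% and 1.69% of junction reads, and 0.911% ± 0.045 on the junctions seen in all 3 libraries. In genes of the lists, 59 unannotated junctions held at least 5% of their donor with at least 50 reads in every library, and 27 of them had a donor that also feeds an annotated junction.

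The junctions with the most reads among these 27 lay in known Purkinje and granule cell genes. In Itpr1 a junction at chr6:108431497-108438299 had 1632, 1023 and 850 reads and took 38.3% ± 1.9, beside 49.3% for the leading annotated one. In Homer3 a junction at chr8:70286063-70287586 had 876, 822 and 929 reads and took 28.1% ± 3.2. In the granule cell gene Fat2, a giant cadherin of parallel fibres, a junction at chr11:55314722-55336460 took 93.8% ± 2.4, and in Cbln3 one at chr14:55882662-55883466 took 14.8% ± 1.2. The reads of the Itpr1 junction were highest in library 1, while those of Fat2 (919, 1223 and 1483) and Cbln3 (957, 1282 and 1663) were highest in library 3, as for most markers of the Purkinje and the granule list. Those of Homer3, also a Purkinje marker, were highest in library 3 and so did not follow its list.

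Junctions with many reads in a single library were of another kind. Of 226 unannotated junctions with at least 1000 reads in some library, 108 had no read in the other 2, against 1 of 16035 annotated ones. They held 709530 reads, 18.1% of all unannotated reads. The largest was a 62 bp intron in Jarid2, a Polycomb partner, with 229550 reads in library 2 and 0 in libraries 1 and 3. The gene itself had a mean of 120 CPM over the 3 libraries. Of the 108, 80 lay in 34 genes with a median count place of 35, and 20 of these genes were among the 100 with the most counts, including Car8, Snap25, Pcp4 and Calm2.

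The spread between the 3 animals was modest for most genes. The common biological coefficient of variation from edgeR was 20.8%, and 17.9% without library 1. The median coefficient of variation (CV) of CPM was 12.4%, where counting error alone gives a median of 2.07%. It was 41.3% for genes under 0.3 CPM and 7.83% for genes of at least 100 CPM. A CV above 50% was found in 897 genes and one under 10% in 5939. The log2 values of libraries 2 and 3 had a Pearson correlation of 0.990 across genes, and library 1 had 0.987 and 0.986 with them.

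Genes with the largest CV at 1 CPM or more were high in 1 library. Rhbdf2, an inactive rhomboid protein, was at 0.554, 3.05 and 0.727 CPM, a CV of 96.5%. Calml4 and Dlk1 were also highest in library 2, at 0.654, 4.12 and 1.49 CPM and at 0.472, 3.88 and 1.80 CPM. Library 2 is the library with the high choroid plexus genes, and whether these 3 share that source was not tested. Nog, the BMP inhibitor noggin, was highest in library 1, at 18.5, 4.27 and 3.68 CPM, and so was Uhrf1, a DNA methylation cofactor, at 2.13, 0.241 and 0.727 CPM. The other 5 of the 10 were Slc15a2, Lypd6b, Mmel1, Liph and Gm16596.

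The genes with the smallest CV at 100 CPM or more varied by less than their counting error would give in some cases. Rrp1, a ribosome assembly factor, was at 246.26, 246.76 and 246.94 CPM, a CV of 0.143%, under the 0.565% that counting alone gives. Acp1, Asna1, Txn2, Dcaf7, Pianp, Gabarapl2, Ublcp1 and Cfl2 were among those that followed, up to 0.514%. They are the lowest of 2304 genes of this abundance. Rbm17, the gene that carries 1 floxed allele in these animals, was also even, at 44.6, 46.1 and 44.8 CPM and 28.2 CPM per kb.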

How the data were processed

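Ribosome-bound RNA was amplified from 10 ng with poly(A) and random primers and sequenced, per the labels' protocols. Per the submitters' processing notes, TopHat2 2.1.0 and HTSeq 0.6.0 were used with mm10. The deposited table holds raw counts per gene, and the deposited junction files hold reads (counts) per splice junction. Not given in the sources used here are the counting annotation, strand setting and treatment of shared reads. Amplified reads are not independent molecules, so depth limits counting error only.

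Of the count table, 3 per-sample columns were not used. Rn45s was left out. CPM used TMM factors and dispersions came from an intercept-only fit (edgeR 4.0.16, R 4.3.3), checked on simulated data. Exon lengths came from GENCODE M21 (GRCm38), by current symbol for 21751 rows and by an older one for 1259, and 410 rows had none. Introns and exon sequences are of the same release. The libraries differed by more than sampling noise (chi-square per degree of freedom from 60.7 to 180), so none was a copy of another.

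The members and lists were chosen with earlier results of these data known. Named were the 25 highest genes by CPM per kb (at least 200 bp), the 3 highest markers of each list and those at 0, the leading, the next and the lowest member of each family, up to 15 cassette exons of listed genes by reads, the flip and flop exons, 5 unannotated junctions, and the 10 largest and smallest CV. Some items that this rule names are not reported here.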

Additional observations from a re-analysis of the deposited data

How the results depend on the processing

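No paired analysis was possible because a single group of libraries was described. The mean Purkinje to granule ratio stayed above 1 under every alternative run, with the exceptions within single libraries given above. The leading member was the same under every alternative in 28 of 40 families: 35 kept it per kb of the median transcript, 33 in CPM, 34 per kb of coding exon, 34 by junction reads and 37 to 40 with a library left out. Of the 25 leading genes, 12 were shared with the order by junction reads, 19 with levels per kb of the median transcript, and 22 to 24 when a library was left out. The share of the 25 most counted genes was 11.95%, and 10.6% with Rn45s kept. The Purkinje to granule ratio of 1.45 was 2.37 by junction reads, 1.11 per kb of the median transcript and 1.11 in CPM, and 1.24 to 1.63 with a library left out. The 3005 exons at 10% to 90% inclusion were 1715 with at least 200 reads, and 3003 to 3034 with a library left out. The unannotated share of 1.73% was 0.911% on junctions seen in all 3 libraries, and 1.6% to 1.83% with a library left out. The coefficient of variation of 20.8% was 29.4% with no count filter, 15.8% with at least 100 counts, and 17.9% to 23.1% with a library left out. Of 30 inclusion values from 1 junction only, 18 moved by more than 1 SD. The readings by junction reads, the equal length of exon pairs and their 1% minimum, and the order of unannotated junctions were chosen after seeing the data. Precision is limited by the number of libraries, 3. The median CV between them was 12.4%, where counting error alone gives 2.07%. What part the makeup of the pull-down has in this spread was not tested. Genes that share exon bases, or whose reads the counting dropped, have uncertain levels.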

Other observations

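Gene groups taken by name, after their values were seen, add to the picture of abundance. The 85 genes named as cytosolic ribosomal proteins held 0.871% ± 0.0127 of CPM together and had a median CV of 4.77% between the libraries. Over all genes of 10 to 100 CPM the median CV was 9.41%, and over those of at least 100 CPM it was 7.83%. Their median was 87.9 ± 1.8 CPM per kb and 46.2 junction RPM. Of the 85, 81 had at least 10 counts in every library, and 6 had more than 2 junction RPM per CPM per kb, among them Rpl30 and Rps27, with 62.0 and 60.6 junction RPM. The 16 ATP synthase genes had a median of 254 ± 11 CPM per kb and were led by Atp5b at 2689, with Atp5l next at 578. The 13 cytochrome c oxidase genes had a median of 250 ± 13 CPM per kb, led by Cox6a1 at 872. The 35 genes named as subunits of respiratory complex I had a median of 83.7 ± 3.7 CPM per kb, with Ndufb9 highest at 221 and Ndufs5 lowest at 0.00613. Ndufs5 had 65.3 junction RPM, so its count and its junction reads disagree.

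The 37 aminoacyl-tRNA synthetase genes had a median of 7.16 ± 0.26 CPM per kb. Lars2 stood at 2707 in this group and Nars, the next, at 65.1, while the mitochondrial Mars2 was lowest at 0.999. No other synthetase came near Lars2 in counts. Further genes with counts far below their junction reads were Atp6v0c, a proton pump subunit, with 198 junction RPM, and the glycolytic enzyme Eno1 with 51.9.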
